A study of Mus musculus with 6 samples.

Results

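Prox1, Lyve1, Mmrn1, Reln, Ccl21a and Pdpn are 6 genes known from lymphatic endothelium, the lining of lymphatic vessels. They were taken by name from a table of 14549 genes measured in the outer layers of the fetal mouse heart, the epicardium and the subepicardial tissue beneath it. Control libraries came from embryos labelled wild-type. The others, called dKO, came from embryos with the genotype Meis1fl/fl;Meis2fl/fl;WT1-Cre, in which both Meis genes can be deleted only in cells that have expressed the WT1-driven Cre, a driver used for the epicardium. All embryos were at E16.5, a late fetal stage, and each of the 3 libraries per genotype was made from a pool of 2 hearts. Which exons were deleted, and what floxed alleles or Cre the control embryos carried, no source used here states. Numbers of libraries come from their titles, and values are listed in the order control 1, 2, 4 and dKO 1, 2, 3 throughout.

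Lymphatic endothelium arises largely from venous endothelium when the homeodomain transcription factor Prox1 is switched on. Prox1 is needed to start and to keep this identity, and Vegfc, acting through the receptor Flt4, guides growth of the vessels. In the heart the lymphatic vessels spread through the subepicardium before birth. None of the 6 genes is confined to these vessels: Prox1 is also made by cardiomyocytes, Lyve1 by tissue macrophages, Pdpn by mesothelium, Mmrn1 by platelets and their precursors, and Reln by neurons.

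Values are normalised read counts, reads scaled to a common library size, on which 1 read was worth 0.0487 to 0.0740. Libraries held between 13146322 and 20635676 reads in the genes of the table. As a check of the labels, Meis2 stood at 86.1, 85.6 and 63.3 across the controls, against 44.5, 34.8 and 44.5 across the dKO pools (log2 change -0.90, limma adjusted p = 0.0035). Meis1 stood at 106, 63.6 and 63.4 against 58.5, 74.1 and 65.0 (log2 change -0.20, limma adjusted p = 0.52). Reads of all exons enter these values, which therefore leave the deleted part unmeasured. Control 1 stood apart from the other controls in cardiomyocyte genes, whose summed value was 5731 there, against 12721 and 12527 in control 2 and 4 and 30267 to 32771 in the dKO pools. It was also the lowest control for 5 of the 6 members, all but Pdpn.

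The DNA upstream of 3 members that fell, and of Prox1, which did not, is shown because these genes are known from the same vessels and moved apart in these libraries. Each sequence is the 250 bases before the RefSeq start (build GRCm38.p6), 5′ to 3′ on the strand of the gene. RefSeq windows were found for 5 of the 6 genes; Lyve1 had none. Capitals mark matches, on either strand, to TGACAG (the core of MEIS sites), AACAAT (SOX factors), GGAAG (ETS factors), AGATAA (factors of the GATA family) or AGGTCA (nuclear receptors).
Ccl21a, chr4:42773992-42774241, minus strand: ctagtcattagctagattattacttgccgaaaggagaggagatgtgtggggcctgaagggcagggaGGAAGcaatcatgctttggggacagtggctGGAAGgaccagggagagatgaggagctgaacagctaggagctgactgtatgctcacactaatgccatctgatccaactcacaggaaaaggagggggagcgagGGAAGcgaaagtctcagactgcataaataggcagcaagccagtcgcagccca
Reln, chr5:22344706-22344955, minus strand: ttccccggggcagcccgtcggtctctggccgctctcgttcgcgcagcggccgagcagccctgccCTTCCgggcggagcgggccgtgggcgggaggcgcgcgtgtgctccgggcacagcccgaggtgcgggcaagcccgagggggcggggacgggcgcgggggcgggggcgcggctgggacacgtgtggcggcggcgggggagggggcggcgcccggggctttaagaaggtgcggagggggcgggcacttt
Pdpn, chr4:143299565-143299814, minus strand: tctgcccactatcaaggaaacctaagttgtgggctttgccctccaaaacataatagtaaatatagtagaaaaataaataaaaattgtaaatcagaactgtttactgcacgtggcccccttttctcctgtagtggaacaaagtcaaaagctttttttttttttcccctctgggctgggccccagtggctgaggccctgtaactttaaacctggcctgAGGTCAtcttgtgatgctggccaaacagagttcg
Prox1, chr1:190170828-190171077, minus strand: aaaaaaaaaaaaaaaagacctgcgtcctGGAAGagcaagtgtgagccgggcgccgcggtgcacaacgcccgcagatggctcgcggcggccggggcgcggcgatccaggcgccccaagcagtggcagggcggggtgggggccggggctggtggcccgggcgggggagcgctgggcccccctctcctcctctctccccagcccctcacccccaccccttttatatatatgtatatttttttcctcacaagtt
The core TGACAG was found in 0 of the windows, and 15.9% of all 32851 promoter windows of this length hold it. GGAAG had 3 matches for Ccl21a and 1 each for Reln and Prox1, and none for Pdpn, against a share of 64.1% among all windows. AGGTCA occurred once, for Pdpn (14.0% of all windows), and AGATAA (9.99%) and AACAAT (9.42%) in 0 of the 4 windows shown. The Prox1 window belongs to the upstream one of its RefSeq starts, and that of the other start held 3 matches to GGAAG. Reln and Prox1 start in GC-rich DNA, at 80.0% and 64.8%, whereas Pdpn (43.2%) lay below the median of all windows, 52.4%. The RefSeq window of Mmrn1 lies inside the gene as GENCODE M21 draws it, so it is not shown; it held 1 match each to AACAAT and GGAAG. These matches describe the letters only.

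In the dKO pools 5 of the 6 genes were lower and Prox1 was not. The call was made by limma on log2 of the value plus 1, with adjustment over all genes, and 12.2% of all 14549 genes were called lower by it (9.81% higher, 22.0% in either direction). Every dKO pool lay below every control pool for these 5 genes, which held for 21.1% of all genes (40.4% were without overlap in either direction). The median log2 change was -3.49 over the 6 members and 0.0016 over all genes. All 6 passed the filter on low values, through the control libraries in the case of Ccl21a.

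**Figure D1:**
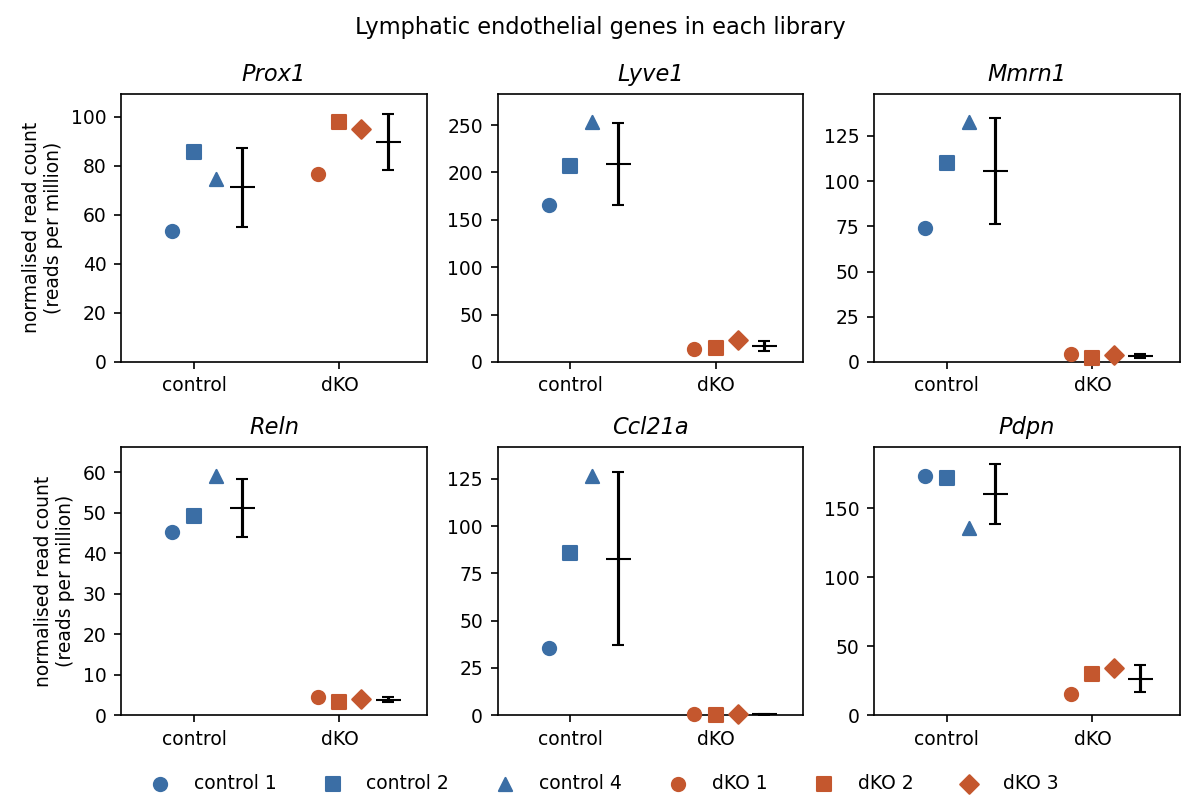
Normalised read count (vertical axis, from 0) of each of the 6 genes in the 3 control (blue) and 3 dKO (orange) libraries, with the mean and SD of each group as a black bar. For Prox1 the groups overlap between 76.6 and 85.5, while for the other 5 genes the dKO points reach at most 34.5 (Pdpn) and no control point lies under 35.4 (Ccl21a).

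Prox1 (ENSMUSG00000010175, GRCm38 chromosome 1, 190118035 to 190170714, minus strand), the lymphatic master regulator, had normalised read counts of 53.6, 85.5 and 74.7 across the controls, against 76.6, 97.8 and 94.98 across the dKO pools. The groups overlapped, since dKO 1 lay below control 2. The means were 71.3 ± 16.2 (SD, n = 3) and 89.8 ± 11.5 (SD, n = 3), a log2 change of 0.35 with an SE of 0.18 (limma adjusted p = 0.198). The 95% interval of the change ran from -0.05 to 0.74 on the log2 scale, or from 0.966 to 1.68 of the control level. A fall to the extent seen in the other members lies outside this interval, and a rise of up to 1.68-fold does not. Without control 1, the library lowest in Prox1, the log2 change was 0.16 (limma adjusted p = 0.515). Each library held at least 868 Prox1 reads, so depth did not limit this value.

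Lyve1 encodes a hyaluronan receptor on the surface of lymphatic endothelial cells. The gene (ENSMUSG00000030787, chromosome 7, 110850607 to 110863239, minus strand) read 166, 207 and 253 across the controls, against 13.3, 14.98 and 22.7 across the dKO pools. The highest dKO pool held 13.6% of the lowest control. Its means were 209 ± 43.4 (SD, n = 3) and 17.0 ± 5.01 (SD, n = 3), a log2 change of -3.56 (SE 0.21, limma adjusted p = 5.7e-06).

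Mmrn1, coding for the secreted protein multimerin, lies on chromosome 6 (ENSMUSG00000054641, 60924976 to 60989378, plus strand). Control libraries gave 74.1, 110.002 and 133, against 4.26, 2.11 and 3.78 from the dKO pools. Here dKO 2 was lowest, with 28 reads, while control libraries held 1200 to 2087. The mean fell from 105.6 ± 29.5 (SD, n = 3) to 3.38 ± 1.13 (SD, n = 3), 3.20% of the control mean (log2 change -4.60, SE 0.26, limma adjusted p = 5.3e-06).

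Reln encodes reelin, a large secreted glycoprotein best known for guiding neurons and also released by lymphatic endothelium. The gene (ENSMUSG00000042453, chromosome 5, 21884454 to 22344702, minus strand) stood at 45.3, 49.2 and 59.1 across the controls, against 4.44, 3.22 and 3.92 across the dKO pools. Both groups were tight, with the highest library 1.31 times the lowest among controls and 1.38 times among dKO pools. From 51.2 ± 7.14 (SD, n = 3) the mean fell to 3.86 ± 0.616 (SD, n = 3), a log2 change of -3.42 (SE 0.20, limma adjusted p = 5.3e-06).

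Ccl21a encodes the chemokine with which lymphatic vessels draw in dendritic cells and T cells that carry the receptor Ccr7. The gene (ENSMUSG00000094686, chromosome 4, 42772860 to 42773993, minus strand) read 35.4, 85.9 and 127 across the controls, the widest control range of the 6 genes (3.59 times). The dKO pools gave 0.466, 0.0370 and 0.804, which rest on 7, 0 and 16 reads. For dKO 2 the count of 0 allows up to 3 reads, or 0.222 on this scale. Its log2 change of -5.72 (SE 0.42, limma adjusted p = 1.7e-05) was the lowest of all 14549 genes on this scale. At values this low its size follows the constant added before taking logs: it was -3.85 with 5 and -7.47 with 0.1 added, and -7.50 with edgeR on the recovered reads (edgeR adjusted p = 0.000143).

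The reads of Ccl21a are not wholly its own, because the mouse genome carries near-identical copies of the gene. Of the 31-base words in its GENCODE M21 transcript, 80.6% occur in the transcript of another gene, and all of these occur in Gm21541, which RefSeq lists as a synonym of Ccl21d. In the other members at most 1.21% of the words were shared. Over the 402 coding bases, counted from the A of the start codon, Ccl21a and each of Ccl21b, Gm21541 and Gm13304 differed at 2 positions, T84A and C194T. Bases 164 to 223 are shown to make plain how little separates the copies, with the differing base in capitals.
Ccl21a: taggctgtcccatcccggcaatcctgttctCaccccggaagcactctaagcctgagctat
Ccl21b: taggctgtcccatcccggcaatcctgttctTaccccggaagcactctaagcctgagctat
Gm21541: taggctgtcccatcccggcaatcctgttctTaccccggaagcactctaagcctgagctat
Of these copies Gm21541 was in the table, at 21.1, 36.0 and 49.9 across the controls, or 341, 564 and 785 reads. It was given 0 reads in all 3 dKO libraries. With 3 reads allowed in each, its level would be at least 193-fold lower there. That bound holds only if the reads were rightly divided between the copies. Ccl21a and Gm21541 together held 913, 1909 and 2781 control reads, against 7, 0 and 16 dKO reads. Summed over both copies the level thus fell as well, while the share of each copy is uncertain.

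Pdpn encodes podoplanin, a mucin-like membrane protein that lymphatic endothelium uses to stay separate from blood vessels by way of platelets. The gene (ENSMUSG00000028583, chromosome 4, 143267431 to 143299564, minus strand) read 174, 172 and 135 across the controls, against 15.4, 29.7 and 34.5 across the dKO pools. Of the 5 lower members it kept most of its level, 16.6% of the control mean, with dKO 1 lowest. Its means were 160 ± 21.6 (SD, n = 3) and 26.5 ± 9.90 (SD, n = 3), a log2 change of -2.62 (SE 0.25, limma adjusted p = 9.6e-05).

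Per kilobase of exon, which allows levels of different genes to be compared, the order in controls was Ccl21a (95.02 ± 52.6, SD, n = 3), Pdpn (88.2 ± 11.9), Lyve1 (71.5 ± 14.9), Mmrn1 (18.0 ± 5.02), Prox1 (8.50 ± 1.93) and Reln (2.16 ± 0.301). The control ranges of Ccl21a and Pdpn overlapped, as did those of Pdpn and Lyve1, and the other neighbours in this order did not overlap. In dKO pools the order was Pdpn (14.6 ± 5.45), Prox1 (10.7 ± 1.37), Lyve1 (5.82 ± 1.72), Mmrn1 (0.576 ± 0.192), Ccl21a (0.501 ± 0.442) and Reln (0.163 ± 0.0259). There the ranges of Pdpn and Prox1 overlapped, and so did those of Mmrn1 and Ccl21a and of Ccl21a and Reln. Prox1 thus moved from the fifth place to the second. The lengths are those of the union of GENCODE M21 exons, which need not be the lengths the authors used.

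Set against its partners within each library, Prox1 was relatively higher in all 3 dKO pools for all 5 pairs. The ratio within a library does not depend on the scaling between libraries, apart from the 1 added to each value. Prox1 was 0.295 to 0.413 of Lyve1 in controls and 4.19 to 6.53 times Lyve1 in dKO pools. Against Pdpn it was 0.309 to 0.552 in controls and 2.76 to 4.96 in dKO pools. These are ratios of normalised read counts, not corrected for the length of the genes, so they compare libraries and not the levels of 2 genes. Per kilobase of exon, Prox1 was below Lyve1 in every control library and above it in every dKO library, while it stayed below Pdpn in every control library and in dKO 2 and 3. Against Mmrn1 the same ratio was 0.564 to 0.777 in controls and 18.0 to 46.4 in dKO pools, and against Reln it was 1.18 to 1.74 and 17.2 to 30.4.

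On the log2 scale the difference in ratio, dKO minus control, was 3.91 for Lyve1, 4.95 for Mmrn1, 3.77 for Reln, 6.07 for Ccl21a and 2.96 for Pdpn. The SD of the log2 ratio over the 3 libraries of a group was 0.241 to 0.673, the widest being that for Ccl21a in controls. The exact two-sided permutation test gave p = 0.1 for each of the 5 pairs, also after Benjamini-Hochberg adjustment, which is the smallest p that 3 against 3 libraries allow. The pairs share Prox1 and are not independent of one another.

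**Figure D2:**
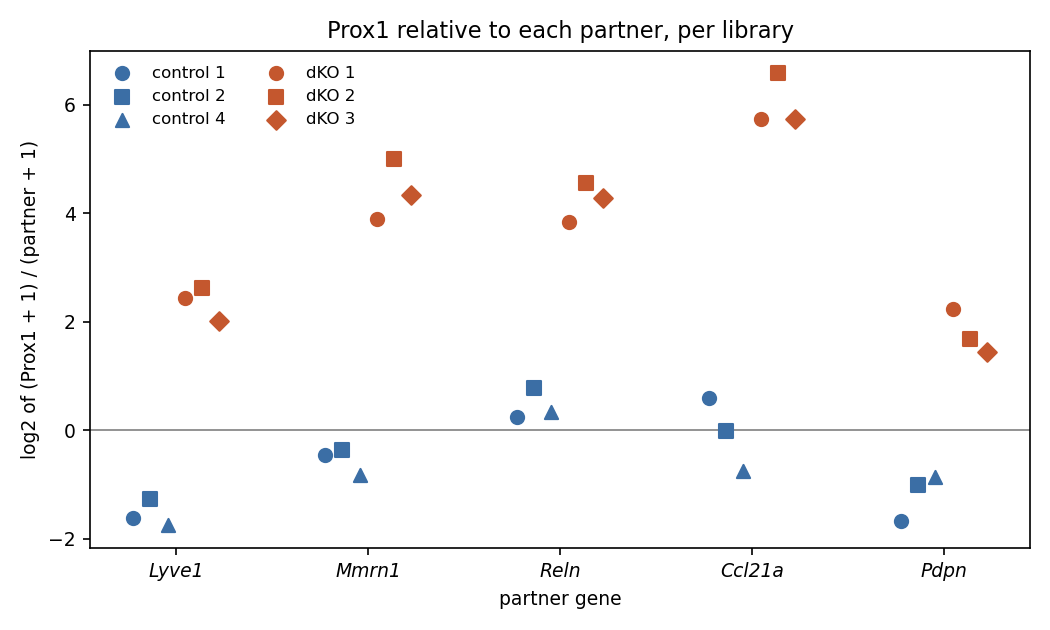
Log2 of the ratio of Prox1 to each partner gene (vertical axis, 1 added to each value) in every library, controls in blue and dKO pools in orange. Every dKO point lies above every control point of its pair, and the groups are farthest apart for Ccl21a, with means of -0.06 and 6.01.

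Of 19 other genes known from lymphatic endothelium 16 were measured, and of these 7 fell, 1 rose and 8 did not pass, with a median log2 change of -0.67. Sema3d, a guidance ligand that the epicardium also makes, fell from 428 ± 130 (SD, n = 3) to 56.1 ± 10.6 (SD, n = 3), a log2 change of -2.89. The transcription factor gene Maf fell from 151 ± 42.2 to 32.2 ± 1.81 (log2 change -2.16), and Clca3a1 from 218 ± 70.0 to 55.0 ± 4.30 (-1.92). Itga9, an integrin subunit needed for lymphatic valves, rose from 77.6 ± 16.4 to 167 ± 23.1 (1.11). The limma adjusted p of these 4 genes ran from 1.7e-05 (Sema3d) to 0.0017 (Itga9).

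Flt4, the receptor of Vegfc, read 41.5, 69.2 and 77.5 across the controls, against 33.3, 33.8 and 37.8 across the dKO pools, a log2 change of -0.78 (limma adjusted p = 0.025). Nr2f2, the venous factor that switches on Prox1 together with Sox18, fell by 0.92 on the log2 scale (limma adjusted p = 0.0074). Sox18 did not pass, with 6.95, 21.2 and 17.2 across the controls, against 17.6, 14.3 and 17.5 (log2 change 0.24, limma adjusted p = 0.67). Foxc2 (-0.16) and Gata2 (-0.19), both tied to lymphatic valves, did not pass either, nor did Stab1 (-0.61) or Stab2 (-0.03), endothelial scavenger receptors. In this list 4 genes were called lower without control 2, without control 4 or without dKO 2, in place of 7. Flt4, Nr2f2, Sox18, Foxc2, Gata2, Stab1 and Stab2 were named after their values were seen.

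**Figure D3:**
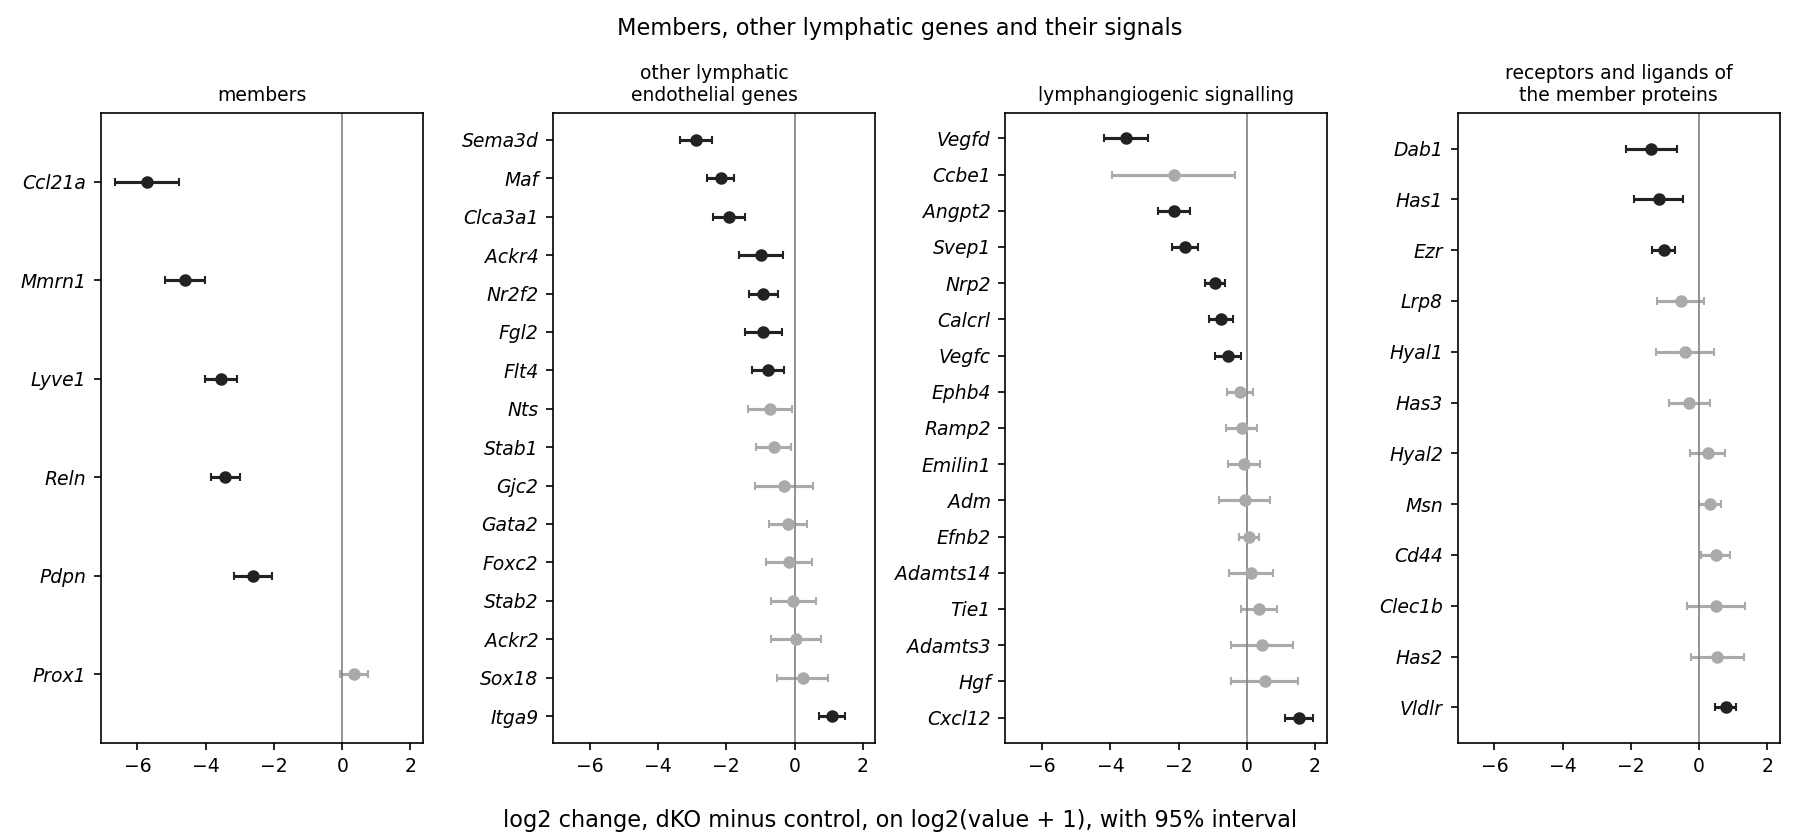
Log2 change (horizontal axis, dKO minus control, on log2 of the value plus 1, with 95% intervals from limma) of the 6 members, 16 other lymphatic genes, 17 genes of lymphangiogenic signalling and 12 receptors, ligands and related genes of the member proteins. Black marks genes with limma adjusted p under 0.05; the 5 fallen members lie between -5.72 and -2.62, and Prox1 at 0.35.

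Among 17 genes of signalling that directs lymphatic growth, 6 fell, 1 rose (2 without dKO 1) and 10 did not pass (median log2 change -0.15). The growth factor gene Vegfd read 31.03, 52.1 and 59.0 across the controls, against 4.44, 2.77 and 2.17 across the dKO pools, with no overlap (log2 change -3.54, limma adjusted p = 3.2e-05). Its relative Vegfc, the main lymphatic growth factor, changed less, from 48.0 ± 8.91 (SD, n = 3) to 32.0 ± 3.86 (SD, n = 3), a log2 change of -0.56 (limma adjusted p = 0.042). Angpt2, a ligand of the receptor Tek, fell from 20.0 ± 2.47 to 3.78 ± 0.528 (log2 change -2.13), and the matrix gene Svep1 from 136 ± 12.2 to 38.7 ± 9.49 (-1.81). Other genes share 13.9% of the exonic bases of Svep1. The chemokine gene Cxcl12 rose from 53.6 ± 13.9 to 153 ± 18.2 (1.52, limma adjusted p = 0.00044). Ccbe1, which enables the processing of Vegfc, was 41.8 in control 1 against 2.71 and 2.63 in control 2 and 4 and 0.466 to 1.96 in dKO pools; its groups did not overlap, and it did not pass (limma adjusted p = 0.087). Vegfc and Ccbe1 were named after their values were seen.

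Genes whose products bind or act on the member proteins showed no common direction. Of 13 such genes 12 were measured, with Ccr7, the receptor of Ccl21a, not in the table; 3 fell, 1 rose and 8 did not pass (median log2 change -0.01). The 2 reelin receptor genes differed: Vldlr rose from 108 ± 17.6 (SD, n = 3) to 184 ± 6.80 (SD, n = 3), a log2 change of 0.78, while Lrp8 did not pass (1.61 ± 0.238 and 0.82 ± 0.417, log2 change -0.54). For Lrp8 every dKO pool lay below every control pool, on 10, 17 and 10 reads against 23, 29 and 23. Dab1, the adaptor that relays the reelin signal, fell from 2.32 ± 0.825 to 0.246 ± 0.257 (-1.40), and the hyaluronan synthase gene Has1 from 2.22 ± 0.916 to 0.385 ± 0.156 (-1.19). Both genes passed the filter on low values only through the control libraries. Their dKO values rest on 8, 2 and 0 reads (Dab1) and 8, 5 and 4 reads (Has1). Both lay near the threshold when 1 library was left out, with log2 changes of similar size. Dab1 was at -1.29 without control 2 (limma adjusted p = 0.052) and at -1.27 without dKO 3 (0.059). Has1 was at -0.97 without control 4 (limma adjusted p = 0.083), at -1.20 without dKO 2 (0.066) and at -1.10 without dKO 3 (0.088). Without dKO 3, 1 gene of the list was lower, and without control 1, 2 were higher. Ezr, coding for ezrin, which links podoplanin to the cytoskeleton, fell from 240 ± 40.5 to 116 ± 12.5 (-1.04). Clec1b and Lrp8 were named after their values were seen. Clec1b, the podoplanin receptor of platelets, was 1.45 to 6.41 in controls and 5.14 to 6.50 in dKO pools (0.49, limma adjusted p = 0.40).

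Pan-endothelial genes mostly did not pass the test. Of 15 measured 1 fell and 0 rose, with a median log2 change of -0.0046. The gene that fell was Tek, from 214 ± 19.8 (SD, n = 3) to 113 ± 2.38 (SD, n = 3), a log2 change of -0.91 (limma adjusted p = 0.0005). Without control 1, 3 of the 15 were lower. The summed value of the list ran from 1345 to 2088 in controls and from 1596 to 1806 in dKO pools, and 0 of its markers were at 0. As a share of this sum, Lyve1 was 12.4%, 12.3% and 12.1% across the controls, against 0.759%, 0.829% and 1.42% across the dKO pools. Mmrn1 was 5.51% to 6.56% of it in controls and 0.117% to 0.244% in dKO pools. With the mean log2 value of this list as a covariate the same 5 members were lower, at -2.69 (Pdpn) to -5.55 (Ccl21a), and Prox1 was at 0.39 (limma adjusted p = 0.114). In RNA from whole tissue, fewer cells of a type and less RNA per cell cannot be told apart.

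Cardiomyocyte genes, relevant to Prox1, were higher in dKO pools for 15 of 16, among them Mybpc3, Myh7, Actn2 and Ttn (median log2 change 1.73). Prox1 was 0.936%, 0.672% and 0.596% of the summed value of that list across the controls, against 0.242%, 0.299% and 0.314% across the dKO pools, with no overlap. With the mean log2 value of the list as a covariate the log2 change of Prox1 was -0.33 (SE 0.38, limma adjusted p = 0.786). Lyve1 (-4.09), Mmrn1 (-5.88), Reln (-3.93) and Ccl21a (-8.12) were called lower in that fit too, and Pdpn was not (-1.87, limma adjusted p = 0.156). The SE in that fit was 0.48 for Lyve1 and 0.56 for Pdpn, against 0.21 and 0.25 without the covariate. The summed value of the list did not overlap between the genotypes. Cardiomyocyte content and genotype therefore cannot be told apart by this fit, for Prox1 or for the other members.

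Epicardial and mesothelial genes, relevant to Pdpn, were lower in dKO pools for 15 of 16, all but Cdh3, with a median log2 change of -2.94. In controls all 16 were present, as the label of the tissue has it. The summed value of this list was 2531 to 3632 in controls and 417 to 568 in dKO pools. Lrrn4 (-5.28), Rspo1 (-3.81), Msln (-3.41) and Upk1b (-2.97) had the smallest p. Pdpn was 4.78%, 6.22% and 5.35% of this sum across the controls, against 3.71%, 6.17% and 6.07% across the dKO pools. The groups overlapped in this share, as they did not for Lyve1 (4.58% to 9.998% against 3.11% to 3.99%) or Mmrn1 (2.04% to 5.24% against 0.438% to 1.02%). Fibroblast genes fell in 10 of 10 (median -1.70), among them Lox (-2.19), Fbln2 (-2.28), Lum (-1.67) and Thy1 (-2.37). On the log2 scale Lyve1 (-3.56), Mmrn1 (-4.60) and Reln (-3.42) lay within the range from Upk1b to Lrrn4, the mesothelial genes named for their smallest p. Pdpn (-2.62) and Ccl21a (-5.72) lay outside that range. So did the median of the whole list (-2.94), so the range does not stand for the list. How far the fall of Pdpn or of the other lower members came with that of the mesothelial genes was not tested.

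Macrophage genes, relevant to Lyve1, fell in 7 of 14 measured, with a median log2 change of -0.78. Mrc1 fell from 178 ± 42.3 (SD, n = 3) to 56.1 ± 3.91 (SD, n = 3), F13a1 from 212 ± 49.0 to 55.0 ± 11.1, and Csf1r and Cd163 by 1.10 and 2.62 on the log2 scale. The summed value was 616 to 899 in controls and 270 to 354 in dKO pools, and Lyve1 was 22.3% to 33.6% of it in controls and 4.30% to 6.41% in dKO pools. Lyve1 thus fell further than the summed value of this list, with no overlap of the shares. Over the alternatives given at the end, the log2 change of Lyve1 ran from -4.09 to -3.29 and that of Cd163 from -3.78 to -1.36. These ranges overlap, and those of Mrc1, F13a1 and Csf1r do not reach that of Lyve1.

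Of 5 endocardial genes 3 fell, Npr3 (-2.16), Hapln1 (-1.20) and Cgnl1 (-0.67); Hapln1 was not called without control 1, control 4 or dKO 2, where its log2 change was -1.07, -1.10 and -0.93 (limma adjusted p = 0.053, 0.066 and 0.067). Among platelet genes, relevant to Mmrn1, 4 of 9 were measured and 1 fell, Pf4 (26.0 ± 7.30 to 5.0015 ± 0.585, log2 change -2.14); without control 1, 2 were lower. The summed value of the platelet list was 26.2 to 43.0 in controls and 9.84 to 11.1 in dKO pools. Of 10 neuronal markers only Stmn2 and Elavl4 were in the table, with 0.525 to 3.33 in controls and 0.804 to 2.64 in dKO pools, and 0 were called. Of 8 hepatocyte markers 0 were in the table. The parts of these cells in the values of Lyve1, Mmrn1 and Reln were not tested.

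**Figure D4:**
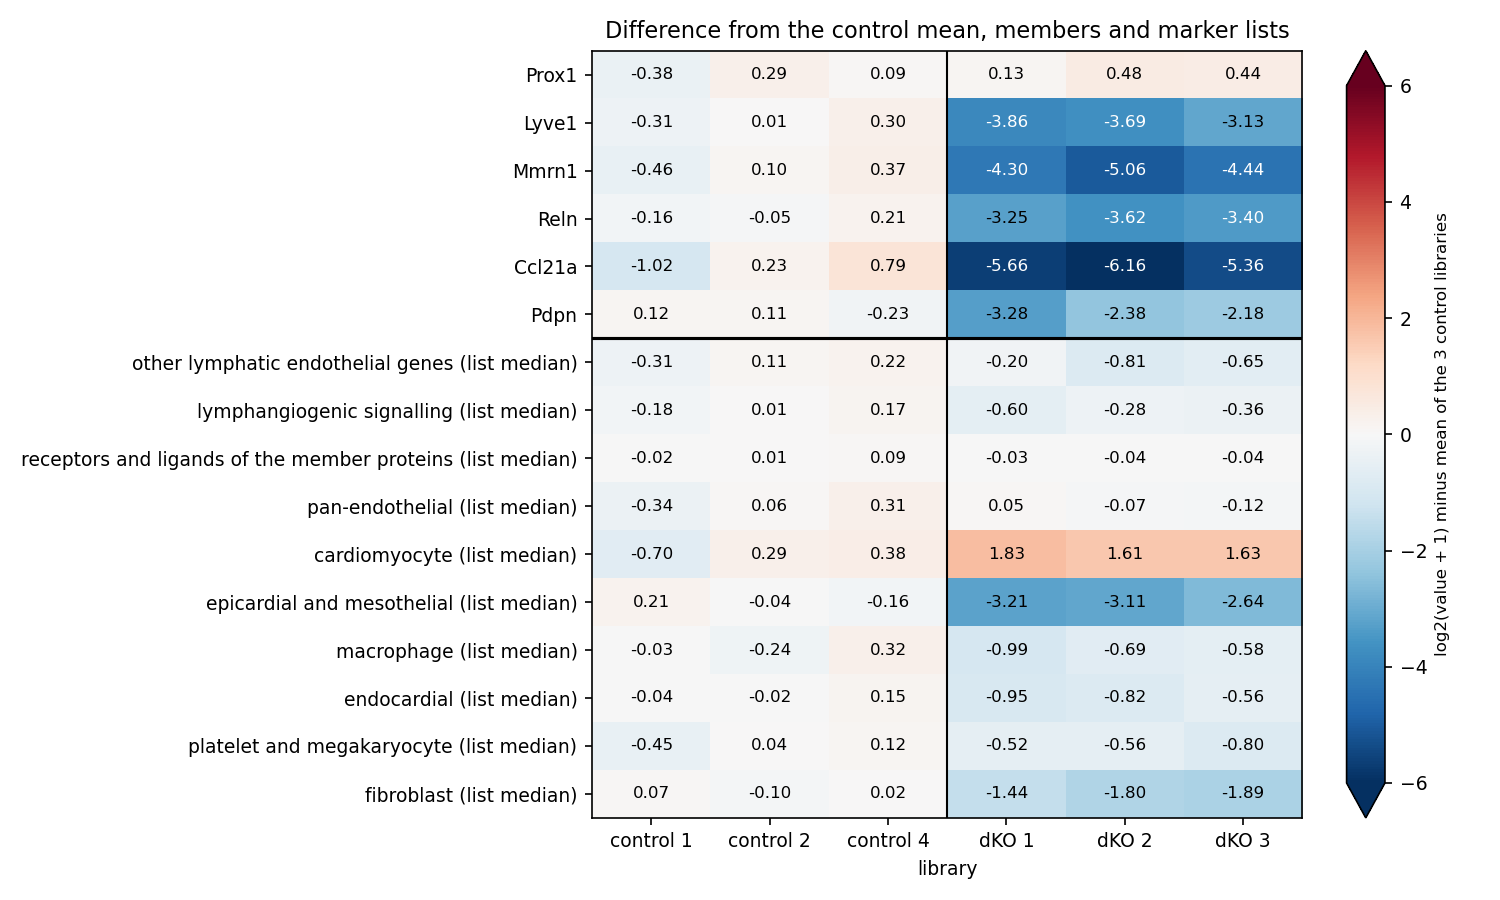
Log2 of the value plus 1 in each library minus the mean of the 3 controls (colour and number), for the 6 members and, below the line, for the medians of 10 gene lists. Prox1 lies between -0.38 and 0.48 in every library, the other members reach -2.18 to -6.16 in dKO pools, and the pan-endothelial median stays within -0.34 and 0.31.

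The members differed among themselves in how their profiles ran over the 6 libraries. Likeness was measured as the root mean square difference between profiles of log2 of the value plus 1, each centred on its own mean. Lyve1 and Reln were the nearest pair at 0.27, and Prox1 was farther from each partner, at 1.52 (Pdpn) to 3.07 (Ccl21a), than any 2 partners were from each other except Ccl21a and Pdpn (1.72). Among 10800 other genes the nearest to Prox1 were Pnpt1 (0.04), Rufy1 (0.05) and Supv3l1 (0.05), 0 of them called. The nearest to Lyve1 were Gna14 (0.20), Msln of the epicardial and mesothelial list (0.20) and Chst4 (0.21). To Reln they were Pcdh20 (0.07), Negr1 (0.16) and Vwa3a (0.20). Nearest to Pdpn were Slmapos2 (0.13), Fmod (0.17) and Golm1 (0.18). Mmrn1 was nearest to Moxd1 (0.34), Efemp1 (0.35) and Col4a4 (0.37), and Ccl21a to C3 (0.49), Cpa3 (0.81) and Efemp1 (0.84). With 2 groups of 3 libraries the measure mixes the difference between the groups with the spread within them. The 1 added to each value also lessens the fall of genes with low dKO values. Among these are Gna14 (means of 14.4 in controls and 0.378 in dKO pools) and Chst4 (17.6 and 0.579).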

How the data were processed

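Polyadenylated RNA was sequenced from libraries made with 40 ng of total RNA per pool, per the labels' protocols; strand is not stated to be kept. Per the submitters' processing notes, cutadapt and RSEM 1.3.1 were used with the GRCm38 build, and the annotation was not given in the sources used here. Signal values as deposited by the authors are on a linear scale. Each of the 87294 was a whole count of reads, after removal of an offset of 0.5, within 0.01 reads (100.0%), and the scaling matched TMM factors recomputed from these reads. GENCODE M21 held 14530 of the 14549 identifiers.

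Every gene passed the filter (1 or more in 3 libraries or more). Control and dKO were compared with limma 3.58.1 (R 4.3.3; log2 of the value plus 1, variance trend, two-sided), adjusted over all genes by Benjamini-Hochberg at 0.05. This scale understates the change of low genes. edgeR 4.0.16 (quasi-likelihood) and DESeq2 1.42.0 on recovered reads (edgeR called 1303 genes higher and 1653 lower), other pseudocounts and filters, quantile normalization, covariates and left-out libraries were alternatives. The fit was also run on simulated counts, with changes set only in genes with more reads. That does not test it at very low counts, such as those of Ccl21a in dKO pools. Python 3.11.15 and scipy 1.17.1 served for ratios and exact tests. Replicates are pools, so p-values measure spread between pools. The members and lists were chosen with earlier results of these data known, so no list is independent evidence. Named were the members, up to 4 genes per list with the smallest p (the 2 highest where none passed), and the 3 genes most like each member (mean at least 5; predicted genes, pseudogenes and, beyond the planned rule, ribosomal protein genes set aside); others are said to have been chosen after their values were seen. Numbers in the titles (1 and 2 in both groups) are not stated to pair pools.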

Additional observations from a re-analysis of the deposited data

How the results depend on the processing

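The 5 lower members were called lower in each of the 18 alternatives except Pdpn with the cardiomyocyte score as a covariate (log2 change -1.87, limma adjusted p = 0.156). In that fit Prox1 (-0.33, limma adjusted p = 0.786) and Elavl4 (-0.23) changed sign, and neither was called in any alternative. Over the alternatives Prox1 ran from -0.33 to 0.49 and Ccl21a from -8.12 to -3.85. Leaving out each library in turn kept 5 members lower and 0 higher. The alternative without a filter could not differ from the main fit, because every gene passed the filter.

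With the cardiomyocyte score 56 genes were higher and 194 lower, and calls among the lists became 4 lower and 0 higher for other lymphatic genes, 3 and 0 for lymphangiogenic signalling, 0 and 0 for receptors and ligands, 2 lower for pan-endothelial, 0 higher for cardiomyocyte, 8 lower for epicardial, 1 lower for macrophage, 0 lower for endocardial and 6 lower for fibroblast genes. With the pan-endothelial score, signalling had 2 higher and pan-endothelial genes 2 lower and 2 higher. With the filter at 5, which removes Dab1 and Has1, receptors and ligands had 1 lower. Without a variance trend other lymphatic genes had 4 lower. DESeq2 called 2 pan-endothelial and 2 platelet genes lower. Without control 1 and dKO 1 together, signalling had 2 higher, receptors and ligands 2 higher, pan-endothelial genes 4 lower and platelet genes 2 lower. The causes of the other changes were not tested. Each covariate takes up a residual degree of freedom, and with the pan-endothelial score 1828 genes were called higher and 2086 lower.

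Leaving out 1 library at a time gave 898 (without dKO 3) to 1262 genes higher, with 910 without dKO 2. Other lymphatic genes had 4 to 9 lower, signalling 1 to 2 higher, receptors and ligands 1 to 3 lower and 1 to 2 higher, pan-endothelial genes 1 to 3 lower and platelet genes 1 to 2 lower. The per-library ratios to Prox1 kept their direction in each such fit and with 0.1 or 5 added.

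With the replicate number as a block (the replicate block), 580 genes were higher and 780 lower, the 5 members stayed called lower and Prox1 was at 0.35. Control 4 and dKO 3 share their number with no other library. The difference in that fit therefore rests only on the libraries numbered 1 and 2. Under the block other lymphatic genes had 4 lower, signalling 3, receptors and ligands 1, endocardial genes 1 and fibroblast genes 6. Libraries with the same number did not deviate together (r = -0.18 for number 1 and -0.20 for number 2), so the numbers were not taken to pair the pools. Depth limits Ccl21a in the dKO pools, which rest on 0 to 16 reads.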
